A study of Mus musculus with 2 samples.

Results

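The genes described here encode the SLC25 mitochondrial carriers, with the uncoupling proteins that belong to the same family. Members were all genes whose array probe sets carry exactly 1 gene symbol and whose symbol is Slc25a followed by digits, or Ucp1, Ucp2 or Ucp3, leaving out Slc25a1. This gave 47 of the 22180 genes measured. Ucp2 is not analysed here. The liver RNA of 2 groups was compared, E4bp4-LKO male mice and WT male mice, both fed a high-fat diet for 12 weeks from the age of 2 months. RNA of several mice was pooled, and each genotype was hybridised to 1 array. The sources used here give neither the number of mice per pool, nor the hour of collection, nor the construct behind the E4bp4-LKO allele. With 1 array per genotype no difference has a replicate error, and none was tested. Differences are E4bp4-LKO minus WT on the log2 scale and describe these arrays.

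SLC25 carriers are small proteins of the inner mitochondrial membrane that exchange or import metabolites, nucleotides, cofactors and ions between the cytosol and the matrix. In liver they serve ATP export, the urea cycle, gluconeogenesis, the malate-aspartate shuttle, the entry of fatty acids as acylcarnitines and the supply of iron, glutathione and cofactors to the matrix. The uncoupling proteins are members that dissipate the proton gradient or move small anions, and the founding one makes heat in brown fat. E4BP4 is a transcriptional repressor encoded by Nfil3 that binds the D-box, a DNA element that the circadian PAR bZIP activators also use.

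Nfil3 had a level of 4.47 on the E4bp4-LKO array and 5.94 on the WT array, a difference of -1.47. The array distributions were nearly alike, with medians of 3.75 on the E4bp4-LKO array and 3.74 on the WT array. Dim genes were marked by a floor of 4.20, which is the midpoint of all genes ranked by their average over the arrays. The 7 measured hepatocyte markers of 8, among them the albumin gene Alb (12.77 on both arrays), differed by between -0.04 and 0.14. All 12 macrophage markers lay above the floor, with a summed linear intensity of 2150 on the E4bp4-LKO array and 2061 on the WT array, and they moved in both directions. At 1.2-fold 5 were higher (Cd163, Lyz2, Timd4, Marco and Vsig4, by between 0.30 and 0.46) and 5 were lower. The background shares at this fold were 10.6% higher and 12.7% lower, over all genes above the floor. Of the lower markers, 2 were past 1.5-fold (Gpnmb at -1.98 and Trem2 at -0.67), against a background share of 2.06%. Of the lower markers, Gpnmb (4.06) and Itgax (3.97) were dimmer than 4.20 on the E4bp4-LKO array, though their averages were not. Of 5 measured white adipocyte markers, Adipoq, Lep and Plin1 were below the floor. The sum was 274 on the E4bp4-LKO array and 287 on the WT array. It rests mostly on Fabp4, at 7.75 on the E4bp4-LKO array and 7.84 on the WT array. Above the floor lay 11090 genes and 35 of the 47 carrier genes, and each of the 47 was measured by 1 probe set.

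The carriers differed little between the arrays. None of the 35 above the floor reached 1.5-fold in either direction, where 3.57% of all genes above the floor did (1.51% higher and 2.06% lower). At 1.2-fold, 4 carriers were higher and 4 were lower on the E4bp4-LKO array. These 8 of 35 are 22.9%, against 23.3% of all genes above the floor (10.6% higher and 12.7% lower), so the share was near the background. The differences of the 35 ran from -0.46 to 0.43, with a median of -0.09 against -0.02 for all genes above the floor. Their median absolute difference was 0.15 against 0.14 for all genes. Negative differences were seen for 23 of the 35 and positive ones for 12, against 54.5% negative and 45.5% positive among all genes.

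**Figure D1:**
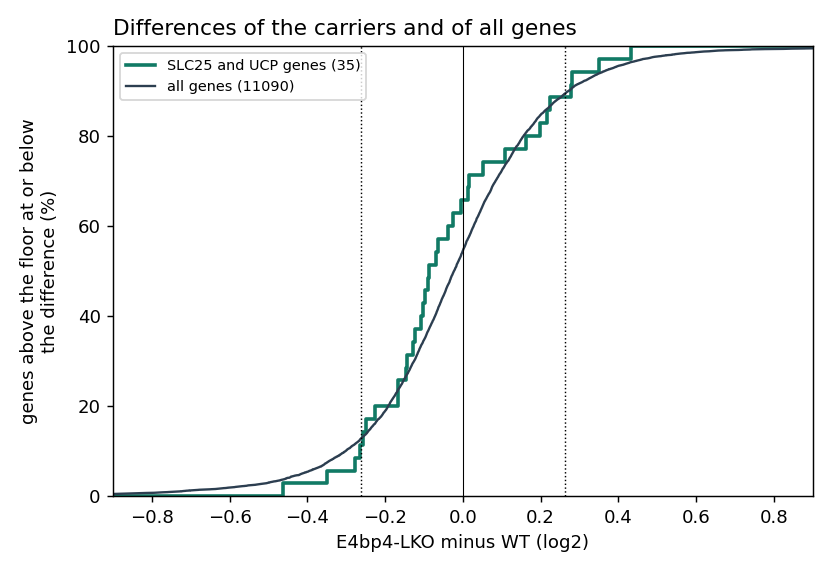
Cumulative share of genes (y axis, percent) at or below each difference, E4bp4-LKO minus WT on the log2 scale (x axis), for the 35 carrier genes and all 11090 genes above the floor. The carrier curve lies left of that of all genes around 0 (65.7% against 54.5% below 0) and meets it near the dotted 1.2-fold lines.

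The carriers with the largest differences above the floor belong to different transport systems. Slc25a10, the dicarboxylate carrier that exchanges malate or succinate for phosphate, was at 8.16 on the E4bp4-LKO array and 8.62 on the WT array. It was the lowest of the 35 relative to WT, by 1.38-fold (-0.46), and 3.72% of all genes above the floor had a more negative difference. Slc25a4, which encodes ANT1, the ADP/ATP exchanger of heart and skeletal muscle, was at 5.74 on the E4bp4-LKO array and 6.09 on the WT array (-0.35). In the other direction Slc25a33, a pyrimidine nucleotide carrier, was at 6.62 on the E4bp4-LKO array and 6.19 on the WT array (1.35-fold, 0.43). Slc25a45, whose substrate is less settled, was at 7.31 on the E4bp4-LKO array and 6.96 on the WT array (0.35).

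**Figure D2:**
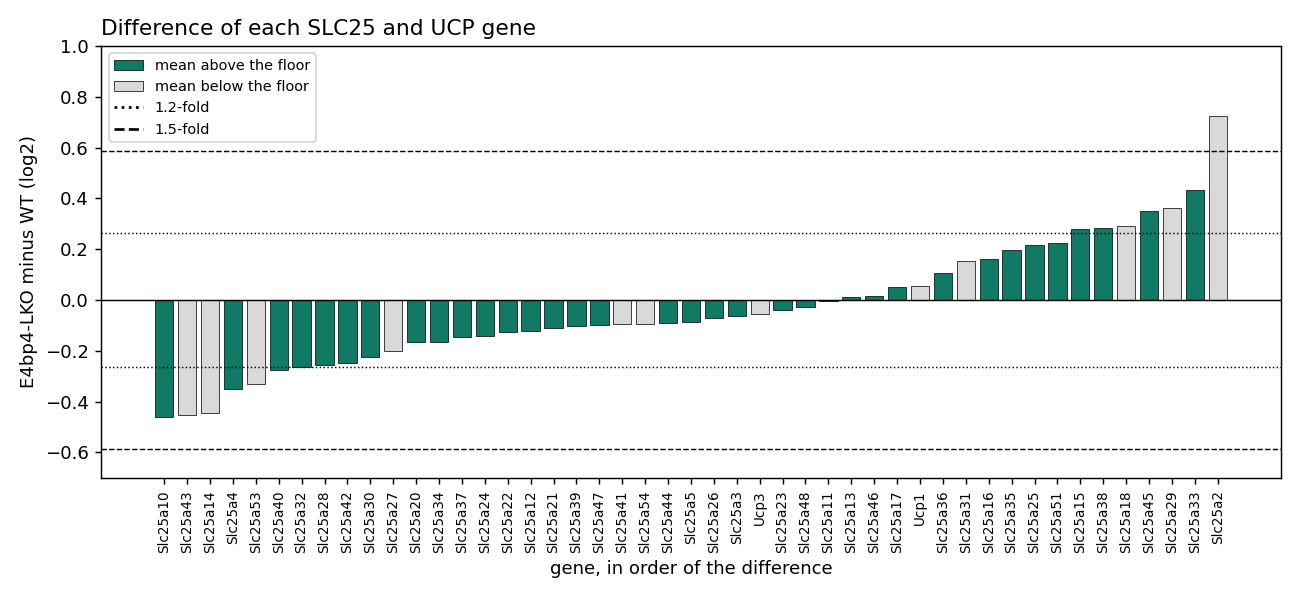
Difference of each of the 47 carrier genes, E4bp4-LKO minus WT on the log2 scale (y axis), with genes in order along the x axis. Bars are coloured by whether the gene's mean over both arrays lay above the floor, and lines mark 1.2-fold and 1.5-fold. The coloured bars run from Slc25a10 (-0.46) to Slc25a33 (0.43), and the bar past 1.5-fold is that of Slc25a2 (0.72), which lay below the floor.

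The DNA just upstream of these 4 genes is shown because E4BP4 acts through the D-box and because they were, among the 35 carriers above the floor, the 2 farthest from 0 in each direction. Each run is the 250 bases before the RefSeq start (assembly GRCm38.p6), 5′ to 3′ on the gene's strand, with matches to the motifs named in the next paragraph in capitals.
Slc25a10 (chr11:120491587-120491836, + strand): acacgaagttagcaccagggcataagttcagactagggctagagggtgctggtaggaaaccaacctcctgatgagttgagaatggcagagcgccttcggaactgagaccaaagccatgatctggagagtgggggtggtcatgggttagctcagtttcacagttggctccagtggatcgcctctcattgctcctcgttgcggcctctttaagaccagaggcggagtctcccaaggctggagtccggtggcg
Slc25a4 (chr8:46211063-46211312, - strand): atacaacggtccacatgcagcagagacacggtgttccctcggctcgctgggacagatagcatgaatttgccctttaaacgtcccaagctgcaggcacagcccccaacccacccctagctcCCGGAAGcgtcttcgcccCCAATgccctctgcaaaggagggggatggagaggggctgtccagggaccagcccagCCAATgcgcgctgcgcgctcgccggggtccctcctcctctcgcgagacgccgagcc
Slc25a33 (chr4:149774268-149774517, - strand): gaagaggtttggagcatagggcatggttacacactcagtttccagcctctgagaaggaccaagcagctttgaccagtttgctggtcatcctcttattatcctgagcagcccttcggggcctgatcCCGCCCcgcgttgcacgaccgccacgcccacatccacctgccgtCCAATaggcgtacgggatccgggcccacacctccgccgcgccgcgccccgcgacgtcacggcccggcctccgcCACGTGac
Slc25a45 (chr19:5877572-5877821, + strand): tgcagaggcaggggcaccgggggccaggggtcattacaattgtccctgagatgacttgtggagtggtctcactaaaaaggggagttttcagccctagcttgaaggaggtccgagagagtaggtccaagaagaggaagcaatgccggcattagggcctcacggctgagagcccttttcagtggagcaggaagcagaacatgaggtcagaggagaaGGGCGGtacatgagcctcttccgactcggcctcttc

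Both strands were searched for the D-box (TTATGTAA or TTACGTAA), the E-box CACGTG bound by clock factors, the GC box GGGCGG, the CCAAT box, the ETS site CCGGAAG of GABP and the TATA box TATAAA. No motif of this set lies within another. The motifs were chosen after the windows had been seen. RefSeq starts were found for 37 of the 47 carrier genes, with 47 windows in all, since some genes have several starts whose windows can overlap. Neither form of the D-box occurred in any carrier window, and these forms occurred in 0.79% and 0.13% of the 21263 windows of protein-coding genes (0.82% and 0.11% of all 32851 windows). At such shares a set of this size would hold few or no matches, and the lack of these letters in the windows says nothing about binding elsewhere.

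Of the 4 genes printed, Slc25a33 held an E-box 8 bases before the start, a GC box and a CCAAT box. Slc25a4 held 2 CCAAT boxes and an ETS site, Slc25a45 held a GC box, and Slc25a10 held none of the motifs. Over the family, the E-box was present in 7 of 47 windows (14.9%), upstream of Slc25a13, Slc25a14, Slc25a15, Slc25a31, Slc25a33 and Slc25a36, against 6.63% of protein-coding windows (6.02% of all windows). The differences of these 6 genes, in the same order, were 0.01, -0.44, 0.28, 0.15, 0.43 and 0.11. The negative one, that of Slc25a14, came from a gene below the floor, as did that of Slc25a31. The other 4 genes lay above the floor and had positive differences, where 45.5% of all genes above the floor did. A link between the E-box and the direction was not tested. The GC box was present in 31 windows (66.0%), against 42.6% of protein-coding windows (32.7% of all windows), and the TATA box in 2 (4.3%), against 11.6% (12.4% of all windows). The CCAAT box stood in 42.6% of carrier windows against 35.4% of protein-coding ones (33.9% of all) and the ETS site in 12.8% against 8.98% (6.91% of all). The median GC content of the carrier windows was 57.2%, against 55.6% for protein-coding windows. These matches are descriptions of letters, not of binding.

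Carriers of ADP, ATP and phosphate supply the matrix with the substrates of ATP synthase and export its product. All 3 members above the floor had negative differences under every scaling tried, as did 54.5% of all genes above the floor in the main scaling. Slc25a4 alone passed 1.2-fold. Slc25a5, which encodes ANT2, an ADP/ATP exchanger found in most tissues, was at 10.64 on the E4bp4-LKO array and 10.73 on the WT array (-0.09). The phosphate carrier gene Slc25a3 was at 8.19 on the E4bp4-LKO array and 8.25 on the WT array (-0.07). Slc25a31, which encodes the ADP/ATP exchanger of the testis, lay below the floor at 2.60 on the E4bp4-LKO array and 2.45 on the WT array. Slc25a4 and Slc25a5 are close paralogs, and probe sequences were not examined.

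Markers of skeletal muscle moved with Slc25a4. All 15 were measured and 13 lay above the floor, the others being the muscle creatine kinase gene Ckm and the calcium buffer gene Pvalb. Among these 13, negative differences were seen for 12, and 7 of those were at least 1.5-fold, with a median difference of -0.75. For all genes above the floor the shares were 54.5% negative and 2.06% at least 1.5-fold lower. Of the 7, Myh1 (3.82) and Myh4 (4.11) had E4bp4-LKO values below the floor. The summed level of the muscle markers on the linear intensity scale, over all 15, was 535 on the E4bp4-LKO array and 954 on the WT array. The part of muscle RNA in the lower Slc25a4 value was not tested. In pooled tissue, fewer cells of a type and less RNA per cell cannot be told apart. Ucp3, the uncoupling protein of muscle, lay below the floor on both arrays, at 3.23 (E4bp4-LKO) and 3.29 (WT).

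The ATP-Mg/phosphate carriers adjust the adenine nucleotide content of the matrix, several of them in response to cytosolic calcium. None of their 3 members above the floor passed 1.2-fold. Slc25a25 was at 7.96 on the E4bp4-LKO array and 7.74 on the WT array (0.22). Slc25a23 was at 10.78 on the E4bp4-LKO array and 10.82 on the WT array (-0.04), and Slc25a24 differed by -0.14. The calcium-independent member Slc25a41 (2.99 on the E4bp4-LKO array, 3.08 on the WT array) and Slc25a54 (2.36 and 2.46 in the same order) lay below the floor.

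Carriers of dicarboxylates, aspartate and glutamate link the citric acid cycle to the cytosol. Besides Slc25a10, no member above the floor passed 1.2-fold. Slc25a11, the oxoglutarate-malate carrier of the malate-aspartate shuttle, was at 8.55 on both arrays (-0.005). Of the aspartate/glutamate carriers that form the other arm of the shuttle, Slc25a13, the liver form known as citrin, was at 10.24 on the E4bp4-LKO array and 10.23 on the WT array (0.01). Its paralog Slc25a12 was at 8.33 on the E4bp4-LKO array and 8.46 on the WT array (-0.12). Slc25a22, a glutamate carrier, differed by -0.13, and Slc25a21, which carries the oxodicarboxylates of lysine and tryptophan breakdown, by -0.11. The second glutamate carrier gene Slc25a18 lay below the floor, at 3.86 on the E4bp4-LKO array and 3.57 on the WT array. The shuttle's 4 enzyme genes had a median difference of 0.06 (-0.01 with the brightest probe set of each gene), and 1 of them passed 1.2-fold. This was Got1, the cytosolic aspartate aminotransferase gene, with a difference of 0.38, while Mdh2, the mitochondrial malate dehydrogenase gene, differed by -0.14.

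Slc25a15, the ornithine-citrulline carrier of the urea cycle, was higher by 1.21-fold (0.28), with 10.51 on the E4bp4-LKO array and 10.23 on the WT array. The urea cycle genes it serves had differences of the same sign. All 6 were above 0 under every scaling tried, where 45.5% of all genes above the floor were above 0. Their median was 0.22 against -0.02 for all genes above the floor. Of the 6, 2 were higher by 1.2-fold (3 after repeated quantile normalisation) and 1 by 1.5-fold. The shares of all genes above the floor were 10.6% and 1.51% in the same order. Ass1, the argininosuccinate synthase gene, was at 5.59 on the E4bp4-LKO array and 4.95 on the WT array (0.65). Cps1, the carbamoyl phosphate synthase gene, differed by 0.30. Slc25a38, which imports glycine for heme synthesis, was at 6.42 on the E4bp4-LKO array and 6.14 on the WT array (0.28). Slc25a44, a branched-chain amino acid carrier described in mouse brown fat, differed by -0.09.

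The other carriers of basic amino acids were dim. Slc25a2, a second ornithine carrier, was at 3.52 on the E4bp4-LKO array and 2.80 on the WT array, a difference of 0.72 that lay wholly below the floor. Its gene overlaps the gene models Gm37013, Gm38666 and Gm38667 in the RefSeq table. Slc25a29, which carries basic amino acids, was at 3.72 on the E4bp4-LKO array and 3.36 on the WT array, also below the floor.

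Slc25a20, the carnitine-acylcarnitine carrier through which long-chain fatty acids enter the matrix, was at 9.54 on the E4bp4-LKO array and 9.70 on the WT array (-0.17). A wider list of genes of the carnitine system showed a median of -0.14 over 6 measured of 7, with 5 negative and 1 past 1.2-fold. Among all genes above the floor, 54.5% were negative and 12.7% were at least 1.2-fold lower. Crat, the carnitine acetyltransferase gene, differed by -0.29 and Cpt1a, the outer membrane palmitoyltransferase gene, by -0.22.

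Carriers of cofactors and nucleotides differed in both directions, with 5 above 0 and 3 below. Slc25a33 was the highest. Slc25a36, the other pyrimidine nucleotide carrier, was at 4.99 on the E4bp4-LKO array and 4.88 on the WT array (0.11). Slc25a51, the carrier that brings NAD into mitochondria, was at 6.16 on the E4bp4-LKO array and 5.94 on the WT array (0.22).

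The coenzyme A carriers did not share a direction. Slc25a16 was at 9.39 on the E4bp4-LKO array and 9.23 on the WT array (0.16), while Slc25a42 was at 8.10 on the E4bp4-LKO array and 8.35 on the WT array (-0.25). Slc25a17, the peroxisomal member of the family, differed by 0.05. Slc25a32, which carries folate and FAD, was at 7.12 on the E4bp4-LKO array and 7.38 on the WT array (-0.26). It lay just past 1.2-fold (0.263 on this scale). The difference was just short of that fold after centring each array on its median over genes above the floor (-0.25). The same held after removing the intensity trend (-0.25). Slc25a26, the S-adenosylmethionine carrier, differed by -0.07.

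The enzymes that make or use these cofactors were also mixed. Of 12 measured genes of coenzyme A, NAD, thiamine and flavin synthesis, 2 were higher and 1 lower by 1.2-fold, with a median of 0.04. Nampt, the rate-limiting enzyme of NAD salvage, differed by 0.57 and Nmnat3, a mitochondrial NAD synthesis gene, by -0.40. Of 9 methionine and folate genes, 2 were higher and 1 lower by 1.2-fold. Mthfd1l, the mitochondrial formate-producing synthetase gene, was at 3.93 on the E4bp4-LKO array and 5.00 on the WT array (-1.06). Its E4bp4-LKO value lay below the floor. Gnmt, the glycine methyltransferase gene that consumes S-adenosylmethionine, differed by 0.46.

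Iron and glutathione carriers had negative differences in 4 of 4 cases under every scaling tried, with a median of -0.20. Negative differences were also seen for 54.5% of all genes above the floor and 65.7% of the 35 carriers. Of the 4, 1 passed 1.2-fold, against 12.7% of all genes in that direction. Slc25a40 was at 5.50 on the E4bp4-LKO array and 5.78 on the WT array (-0.28). It was short of 1.2-fold once the intensity trend was removed (-0.25). Its paralog Slc25a39, the mitochondrial glutathione importer, was at 10.44 on the E4bp4-LKO array and 10.54 on the WT array (-0.10).

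The glutathione enzymes had the same sign, with 4 of 4 negative and a median of -0.16. Among all genes above the floor, 54.5% were negative and the median was -0.02. Gss, the glutathione synthetase gene, differed by -0.27 and Gclc, the catalytic subunit gene of glutamate-cysteine ligase, by -0.16. The mitoferrins import iron for heme and iron-sulfur clusters. Slc25a28, the mitoferrin of non-erythroid tissues, was at 7.25 on the E4bp4-LKO array and 7.51 on the WT array (-0.26), just short of 1.2-fold. Slc25a37, the mitoferrin of erythroid precursors, was at 8.05 on the E4bp4-LKO array and 8.19 on the WT array (-0.15). Only 4 of the 11 erythroid markers were measured, with a summed linear level of 48.7 on the E4bp4-LKO array and 50.6 on the WT array. Of these, Klf1 lay above the floor, and Slc4a1, Epb42 and Gata1 did not. Their part in the Slc25a37 value was not tested. Heme and iron-sulfur synthesis genes had a median of 0.001 over 9 measured (-0.004 after repeated quantile normalisation), none of them past 1.2-fold. Alas1, the first enzyme of heme synthesis, differed by -0.25 and Glrx5, an iron-sulfur cluster glutaredoxin, by 0.24.

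The uncoupling proteins measured were dim in this liver RNA. Ucp1, the brown fat protein, was at 3.31 on the E4bp4-LKO array and 3.25 on the WT array, below the floor on both. Of 6 measured brown fat markers, Cox8b, Dio2, Prdm16 and Zic1 were below the floor. Cidea, a brown fat marker that also coats lipid droplets in fatty liver, was at 5.03 on the E4bp4-LKO array and 7.38 on the WT array, and Cox7a1 differed by -0.08. The summed linear level of the 6 was 92.9 on the E4bp4-LKO array and 231 on the WT array, a gap that rests on Cidea. Without it, the other 5 summed to 60.2 on the E4bp4-LKO array and 64.8 on the WT array. The uncoupling relatives of brain also had means below the floor, Slc25a14 at 3.47 on the E4bp4-LKO array and 3.91 on the WT array, and Slc25a27 with a difference of -0.20. Slc25a30, a relative described in mouse kidney, was the one above it, at 7.11 on the E4bp4-LKO array and 7.34 on the WT array (-0.22). Among regulators of mitochondrial number and heat production, Ppargc1b differed by -0.37 and Tfam, the mitochondrial DNA packaging factor gene, by 0.15, with a median of -0.05 over the 6 above the floor.

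Members whose substrate is unassigned or debated had differences on both sides of 0, 3 above it and 3 below. Besides Slc25a45, Slc25a47, a liver-enriched carrier, was at 10.53 on the E4bp4-LKO array and 10.63 on the WT array (-0.10). Slc25a46, an outer membrane member that takes part in mitochondrial fission and fusion, was at 8.64 on the E4bp4-LKO array and 8.63 on the WT array (0.02). Slc25a48 differed by -0.03 and Slc25a34 by -0.17. Slc25a35 differed by 0.20 on its own probe set, at 5.19 on the E4bp4-LKO array and 4.99 on the WT array. A second probe set shared with the overlapping gene Rangrf went the other way (-0.54), at 3.47 on the E4bp4-LKO array and 4.01 on the WT array, so the direction of Slc25a35 depends on the probe set. Slc25a43 (2.69 on the E4bp4-LKO array, 3.14 on the WT array) and Slc25a53 (3.36 and 3.69 in the same order) lay below the floor.

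**Figure D3:**
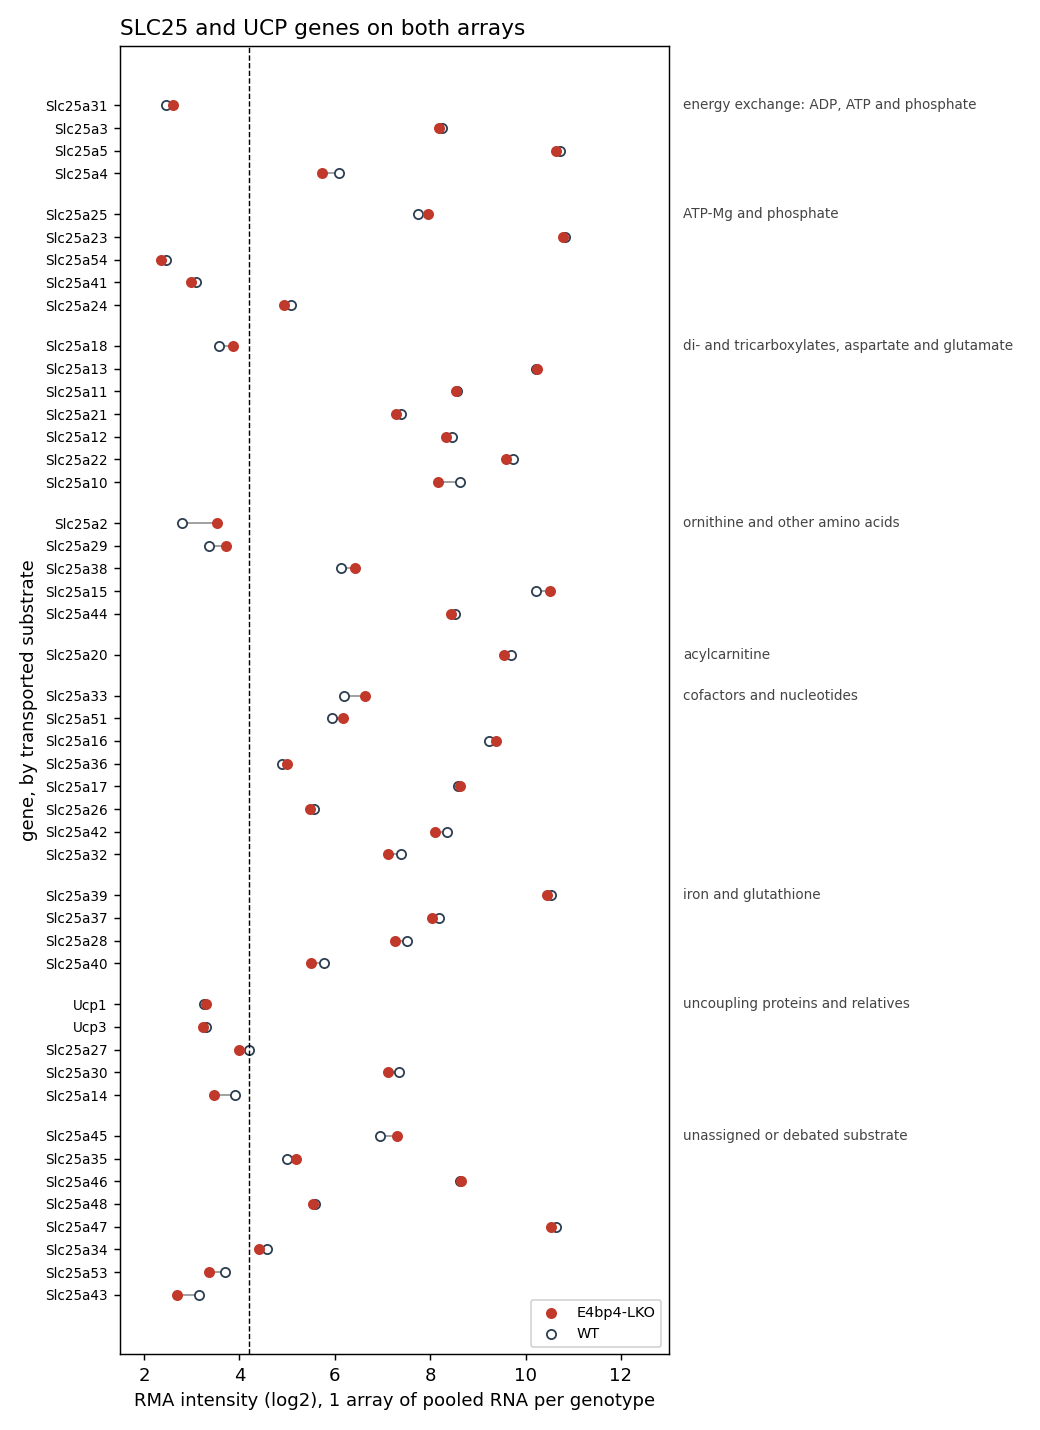
RMA intensity (x axis, log2) of the 47 carrier genes by transported substrate (y axis) on the E4bp4-LKO array (filled) and the WT array (open), with the floor of 4.20 dashed. The 2 values of a gene lie close together, the widest gap being that of Slc25a2 (3.52 and 2.80), and levels of different genes are not comparable because each has its own probes.

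Some carrier genes lie side by side in the genome. Slc25a23 (-0.04) and Slc25a41 (-0.09) are neighbours with no other protein-coding gene between them, as are Slc25a24 (-0.14) and Slc25a54 (-0.09). Slc25a47 (-0.10) lies next to Slc25a29 (0.36) and Slc25a5 (-0.09) next to Slc25a43 (-0.45). Slc25a41, Slc25a54, Slc25a29 and Slc25a43 were below the floor. Each of these pairs thus held a dim gene, so likeness between neighbours cannot be judged from them. Several members overlap another gene in the RefSeq table. Slc25a11 overlaps Rnf167 (-0.14), Slc25a25 overlaps Naif1 (-0.13), Slc25a26 overlaps Lrig1 (-0.004), Slc25a21 overlaps Pax9 (-0.34) and Slc25a53 overlaps Zcchc18 (-0.26). Sharing of signal between these genes was not tested.

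The machinery that places carriers in the inner membrane showed more positive than negative differences. Carriers cross the outer membrane through TOM receptors, are escorted by small TIM chaperones and are inserted by the TIM22 complex. Of 13 genes, 10 were above 0 (9 with the brightest probe set of each gene), against 45.5% of all genes above the floor. At 1.2-fold 6 were higher and 1 was lower, against 10.6% and 12.7% of all genes. None was lower by 1.2-fold after median centring or removal of the intensity trend. Their median was 0.12 against -0.02 for all genes above the floor. Timm9, a small TIM chaperone gene, was at 6.54 on the E4bp4-LKO array and 5.97 on the WT array (0.57), close under 1.5-fold. Tomm20, an import receptor gene, was at 6.86 on the E4bp4-LKO array and 6.46 on the WT array (0.40). Timm22 itself differed by 0.30 and Timm29 by -0.11, while Agk, another TIM22 subunit gene, differed by -0.27.

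The 3 outer membrane pore genes had a median of -0.15, with Vdac1 at -0.21 and Vdac2 at -0.15. Among the pyruvate carrier Mpc1, the sideroflexins, the outer membrane relatives of the family and Mtfp1, 1 of 8 above the floor passed 1.2-fold. This was Sfxn3, a sideroflexin gene, at 5.16 on the E4bp4-LKO array and 5.69 on the WT array (-0.52). Mtch2, an outer membrane relative of the family, differed by 0.18.

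**Figure D4:**
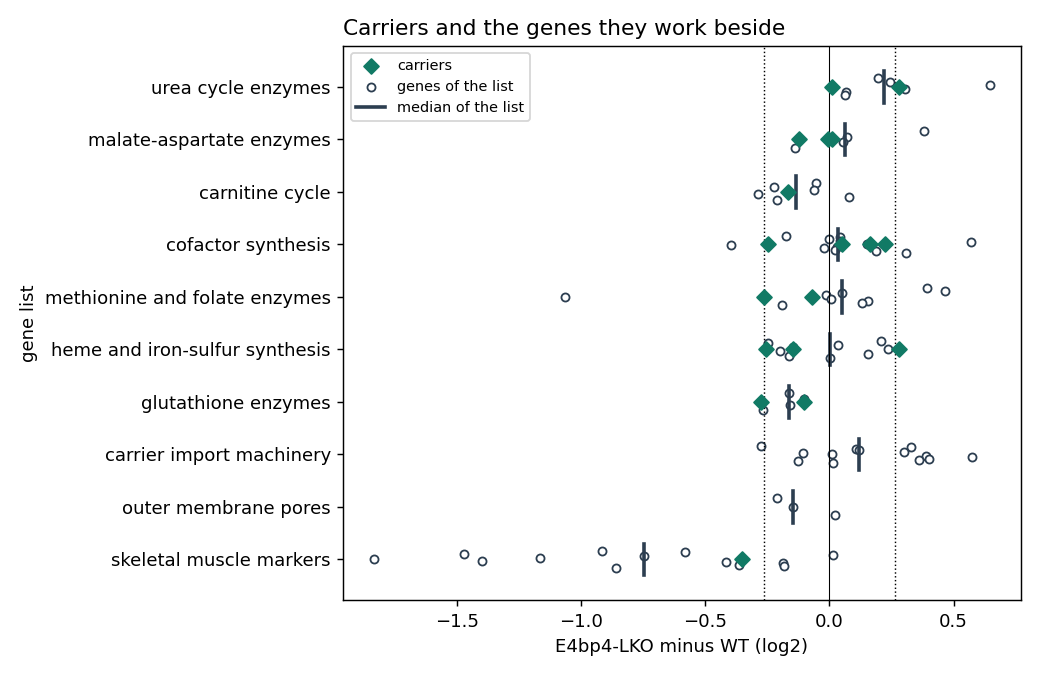
Differences, E4bp4-LKO minus WT on the log2 scale (x axis), of the genes above the floor in 10 lists (y axis), with the carriers that serve each pathway as diamonds, each list's median as a bar and 1.2-fold as dotted lines. Urea cycle genes lie between 0.06 and 0.65 with Slc25a15 at 0.28, and glutathione genes lie between -0.27 and -0.10 with Slc25a40 at -0.28. The paralog of Slc25a40, Slc25a39, differed by -0.10. Muscle markers reach -1.83 beside Slc25a4 at -0.35.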

How the data were processed

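The authors deposited log2 intensities of probe sets for each array, and per the submitters' processing notes RMA and R 3.4.0 were used. RMA corrects background, equalises the arrays' distributions by quantiles and summarises probes, which compresses differences of dim genes. Biotinylated cDNA was made from 400 ng of total RNA, per the labels' protocols. The table held 41345 probe sets, of which the platform annotation gave 1 symbol to 23521, several to 1814 and none to 16010. Probe sets with 1 symbol were averaged per gene. All 47 carriers matched the RefSeq gene table (GRCm38.p6) by Entrez identifier. Detection calls were not used, so the floor stands in for background.

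With 1 array per genotype no test was possible, and the number of arrays limits the precision. Disagreement between probes had a standard deviation of 0.22 (log2 difference), taken from the 555 genes that lay above the floor and had 2 probe sets. Genes named were all members, Nfil3, and of each pathway list the members past 1.5-fold and the 2 farthest from 0 above the floor. Other genes named (Mpc1, Mtfp1, Alb, Timm22, Timm29, Agk, the overlapping genes and single markers) were chosen after their values were seen. The members and lists were chosen with earlier results of these data known. Python 3.11.15, pandas 2.3.3 and statsmodels 0.14.6 were used, and counts and scaling steps were tested on simulated data. Alternatives were other floors, the brightest probe set, repeated quantile normalisation and removal of an intensity trend by lowess. Further ones were median centring and the inclusion of probe sets with several symbols. Median centring used each array's median over genes above the floor.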

Additional observations from a re-analysis of the deposited data

How the results depend on the processing

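With 1 array per genotype nothing here carries a replicate error, and depth on an array is set by signal over background, which limits the 12 carriers below the floor. No paired analysis was possible because each genotype has 1 pooled array and no replicate numbers. Without a floor, 1 of 47 carriers was at least 1.5-fold higher (Slc25a2), 7 were at least 1.2-fold higher and 7 lower, since the dim genes then count. Of all genes without a floor, 22.8% were past 1.2-fold in either direction. With a floor at the 75th percentile (6.28), 25 carriers remained above it, of which 3 were at least 1.2-fold higher and 2 lower. Past 1.2-fold in either direction were 18.8% of all genes above that floor. With the intensity trend removed, 4 of the 35 were at least 1.2-fold higher and 2 lower, because Slc25a32 and Slc25a40 lie close to that fold. At that setting 23.2% of all genes above the floor were past 1.2-fold in either direction. The median over the carriers above the floor ran from -0.09 to -0.07 over all alternatives. Apart from Slc25a35, which turned to -0.17 once the probe set shared with Rangrf was included, no carrier's difference moved by more than 0.029 under any alternative. Timm9 and Nampt, which lay just under 1.5-fold, passed it once the intensity trend was removed, and Timm9 also after median centring.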
